A study of Homo sapiens with 2 samples.

Results

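The genes described here were 47 hnRNP proteins and auxiliary splicing regulators, the RNA-binding proteins that act beside the SR proteins to decide which exons enter an mRNA. They were taken by symbol from a written list of hnRNP, PCBP, PTBP, FET, MBNL, CELF, RBFOX, QKI, ESRP, TIA, ELAVL, KH-domain, TRA2 and RBM genes. All 47 were found among the 54261 gene symbols of the count table. RKO, a human colorectal carcinoma cell line, was transiently transfected with a control siRNA, here si-NC, or with si-SRSF2, which targets the SR protein SRSF2, and poly(A) RNA was sequenced as strand-specific paired-end libraries on a HiSeq X. The study asked which splicing events depend on SRSF2. There was 1 library in each of the 2 groups, so the spread between transfections is unknown and no difference below has a replicate check. Both libraries came from a single cell line, and the sample labels give no time after transfection.

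Exon choice is set by proteins bound to enhancer and silencer elements in and around the exon. SR proteins, bound to exonic enhancers, usually favor inclusion, whereas hnRNP proteins, among the most abundant proteins of the nucleus, often bind silencers and favor skipping, with exceptions in both families that depend on where the protein sits. MBNL, CELF, RBFOX, ESRP, PTBP and TIA proteins add tissue-specific or position-dependent control, and many of these genes adjust their own mRNA through exons or introns that lead to nonsense-mediated decay.

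The reagents that distinguish the groups are shown first. Each line gives the strand listed in the study's reagent table, from 5′ to 3′, and the capitals mark the bases that pair with the seed (bases 2 to 8) of the opposite strand.
siNC: uucuucgaacgUGUCACGutt
si-SRSF2: uccaaauccagGUCGCGAutt

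The si-NC library held 19931360 counts and the si-SRSF2 library 14512802. Levels are given as CPM, the unit of counts relative to the library total. For an observed count of 0, the approximate 1-sided 95% upper limit of 3 counts equalled 0.151 and 0.207 CPM. SRSF2 itself had 1964 counts under si-NC and 713 under si-SRSF2, which after TMM scaling was 98.5 and 49.1 CPM and left 49.9% of the control level. The ratio of its levels, si-SRSF2 over si-NC, given here and throughout as the log2 of CPM + 0.5, was -0.997 with a 95% Clopper-Pearson interval of -1.13 to -0.88. All intervals cover counting error only. In bulk RNA, less RNA per cell and fewer cells with the RNA cannot be told apart. Of 7 epithelial markers, 4 had at least 1 CPM and the list summed to 79.3 CPM under si-NC and 96.9 CPM under si-SRSF2, with KRT20 at 0 counts in both libraries and CDH1 at 10 and 6 counts. The mesenchymal list summed to 433.6 and 474.5 CPM, mostly ZEB1 with 8083 and 6504 counts, and 0 of 3 markers of leukocytes, endothelium and fibroblasts reached 1 CPM, their sum being 0.753 and 0.896 CPM. RKO is known as a poorly differentiated line, and the label of an epithelial carcinoma rested on KRT8, KRT18, EPCAM and CDX2.

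Most of the splicing regulators differed little between the libraries. The level needed for a usable ratio, a mean over both libraries of 1 CPM or more, was reached by 44 of the 47, and of these 22 were higher and 22 lower in si-SRSF2, with a median log2 ratio of 0.00 against -0.02 for the 12620 genes at that level. A regulator was counted as higher at a log2 ratio of 0.32 or more, that is, a level at least 25% higher in si-SRSF2, and as lower at the same distance below 0. Neither mark was reached by 39 of the 44. Higher were 4 of 44 (9.09%), HNRNPDL, PTBP2, HNRNPH3 and KHDRBS1, where the share among all genes was 11.8%. Lower was 1 of 44 (2.27%), TAF15, where the share among all genes was 13.3%. At 1.5-fold, HNRNPDL and PTBP2 were still counted as higher and TAF15 as lower, with 4.18% and 3.52% of all genes past that fold in each direction.

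The regulators were abundant, with a median of 171 CPM in si-NC against 33.5 CPM over all genes, so ratios were also read at a mean of 20 CPM or more. There, 4 of 42 regulators (9.52%) were higher by the 25% mark against 6.28% of 7917 genes, and 0 of 42 were lower against 9.02%. The median size of the log2 ratio, without its sign, was 0.12 for the regulators and 0.14 for all genes, and the 90th percentiles were 0.28 and 0.38. The counting interval lay above 0 for 16 of 42 (38.1%) against 23.9% of all genes, and below 0 for 13 of 42 (30.95%) against 32.7%. These shares are not on equal terms, because the regulators had a median of 172.5 CPM in si-NC against 63.9 CPM for all genes at that level, and intervals narrow with the count. After the 4 higher genes, the next ratio on the higher side was 0.28 for RBFOX2. Its counting interval of 0.07 to 0.49 took in the ratios of HNRNPH3 (0.41) and KHDRBS1 (0.41). On the lower side the largest ratio in size was -0.27 for HNRNPD. No test was made with 1 library per group, and these shares are descriptions.

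**Figure D1:**
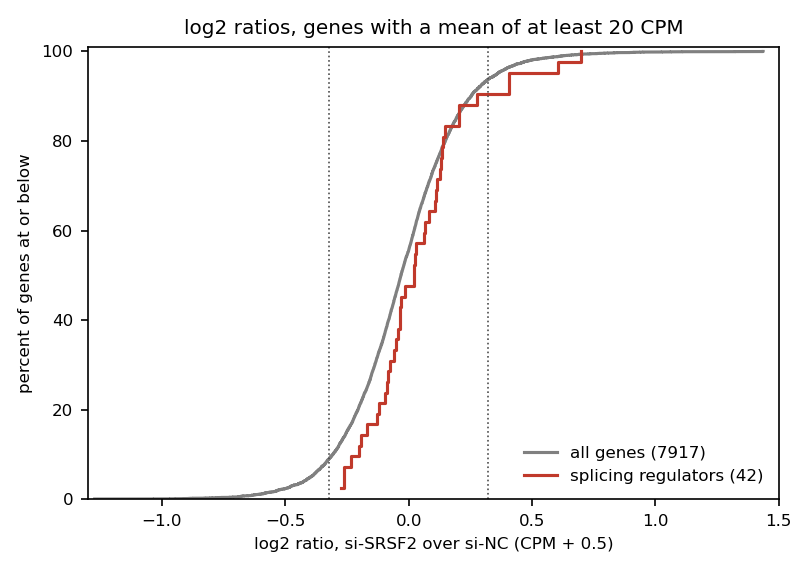
Cumulative share of genes (vertical axis, percent) at or below each log2 ratio (horizontal axis, si-SRSF2 over si-NC on CPM + 0.5) at a mean of 20 CPM or more, for 42 splicing regulators (red) and all 7917 genes (grey), with dotted lines at the 25% marks. The red curve starts at -0.27, inside the left dotted line, and passes the right one with 4 genes, the last at 0.70.

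**Figure D2:**
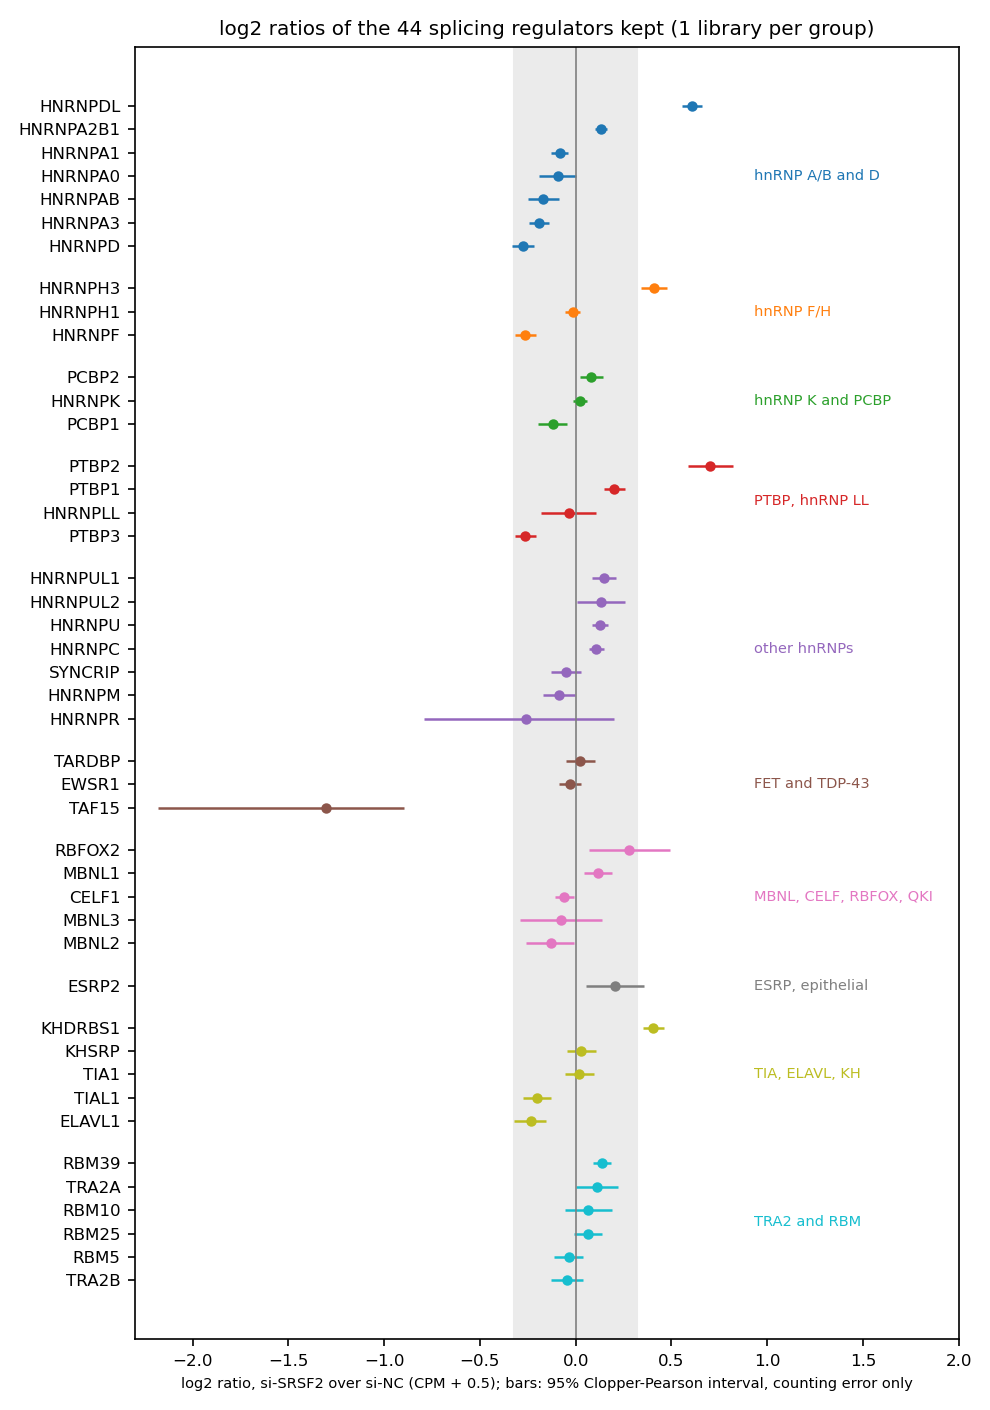
Log2 ratio (horizontal axis, si-SRSF2 over si-NC on CPM + 0.5) for the 44 splicing regulators at a mean of 1 CPM or more, colored by group, with bars for the 95% Clopper-Pearson interval of counting error and grey shading between the 25% marks. Points lie outside the shading for HNRNPDL, HNRNPH3, PTBP2 and KHDRBS1 on the right and for TAF15 on the left, and the widest bars belong to TAF15 and HNRNPR, which had the fewest counts.

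The hnRNP A/B and D proteins, which carry paired RNA recognition motifs and a glycine-rich tail, held the regulator with the most counts and the paralog pair whose shares differed most. HNRNPDL (ENSG00000152795.18, GRCh38 chr4:82422565-82430462, minus strand), a close relative of the AU-rich element binding protein HNRNPD, had 5750 counts under si-NC and 6379 under si-SRSF2, or 288.5 and 439.5 CPM. Its log2 ratio was 0.61 (0.56 to 0.66), with more counts in si-SRSF2 although that library was the shallower of the 2. HNRNPD (chr4:82352498-82374503), on the same strand and 48.1 kb away, had 6690 and 4026 counts, or 335.7 and 277.4 CPM, and a log2 ratio of -0.27 (-0.33 to -0.22). The counting intervals of these neighbors lay on opposite sides of 0. HNRNPDL thus made up 46.2% (45.3 to 47.1) of the summed counts of the pair under si-NC and 61.3% (60.4 to 62.2) under si-SRSF2, a difference of 15.1 percentage points. Library scaling cancels in such a share. Share intervals did not overlap between the libraries for 10 of the 17 pairs compared. Single-gene counting intervals lay above 0 for 23.9% and below 0 for 32.7% of all genes at 20 CPM or more. Intervals free of overlap are therefore common at these depths, and no like share was computed for pairs of other genes.

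Other members of that group stayed close to their control level. HNRNPA2B1, a partner of HNRNPA1 in exon silencing and mRNA transport, had 20511 and 16382 counts, or 1029 and 1129 CPM, and a log2 ratio of 0.13 (0.10 to 0.16). HNRNPA1, the classical antagonist of the SR protein SRSF1 in splice site choice, had 9983 and 6865 counts, or 500.9 and 473.0 CPM, and a ratio of -0.08 (-0.13 to -0.04). HNRNPA3 had 7455 and 4749 counts, or 374.1 and 327.2 CPM, and a ratio of -0.19 (-0.25 to -0.14). The share of HNRNPA2B1 in its pair with HNRNPA1 was 67.3% under si-NC and 70.5% under si-SRSF2, and the share of HNRNPA3 in its pair with HNRNPA1 was 42.8% and 40.9%, with intervals that did not overlap in either pair. HNRNPAB, a CArG-box and RNA binding protein, had 3101 and 2008 counts with a ratio of -0.17, and HNRNPA0, a binder of AU-rich elements, had 2229 and 1520 with a ratio of -0.09. In this group of 7, then, 5 ratios were below 0 and 2 above it.

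Counts of HNRNPA1 carry a limit from its processed copies. The table listed 74 rows named as HNRNPA1 pseudogenes, and together they held 5184 and 3873 counts, equal to 51.9% and 56.4% of the counts of HNRNPA1 itself. The leading row, HNRNPA1P48, had 2183 and 1722 counts. With these rows added, the log2 ratio was -0.04 (-0.08 to -0.00495), against -0.08 without them. Of the 31-mers of the canonical HNRNPA1 transcript, 45.7% also occurred elsewhere on the chromosomes of GRCh38, and the same share was 57.7% for HNRNPK, 48.8% for HNRNPA3 and 45.2% for HNRNPC. Levels of these 4 genes are therefore uncertain, since reads from near-identical copies could be split among rows. For HNRNPDL it was 6.90% and for PTBP2 0%.

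The hnRNP F/H proteins bind runs of G and can act as enhancers or silencers. HNRNPH3 (ENSG00000096746.18, chr10:68331174-68343193, plus strand), the shortest relative of the family, had 3359 counts under si-NC and 3248 under si-SRSF2, or 168.5 and 223.8 CPM, and a log2 ratio of 0.41 (0.34 to 0.48). HNRNPF was on the other side, with 6937 and 4210 counts, or 348.1 and 290.1 CPM, and a ratio of -0.26 (-0.32 to -0.21). HNRNPH1, which the study also depleted in other experiments, had 11115 and 8003 counts, or 557.7 and 551.4 CPM, and its ratio of -0.02 (-0.06 to 0.03) had an interval that included 0 and a sign that turned with the scaling (0.01 with upper-quartile factors). HNRNPH1 took 61.6% of its pair with HNRNPF under si-NC and 65.5% under si-SRSF2, without overlap of the intervals. HNRNPH2, the X-linked copy, had 1 count in each library and gave no usable ratio. Its exons lie partly within the readthrough gene RPL36A-HNRNPH2 on the same strand (15.8% of its exon bases), a row with 0 counts in both libraries, and whether counting placed its reads elsewhere was not tested.

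The poly(C) binding proteins were nearly level. HNRNPK, a KH-domain protein that acts in transcription, splicing and translation and that the study depleted separately, had 14815 and 10964 counts, or 743.4 and 755.4 CPM, and a log2 ratio of 0.02 (-0.01 to 0.06). PCBP2 had 5086 and 3918 counts, or 255.2 and 269.9 CPM, and a ratio of 0.08 (0.02 to 0.14), and PCBP1, its intronless relative, had 3493 and 2339 counts, or 175.3 and 161.2 CPM, and a ratio of -0.12 (-0.20 to -0.05). The share of PCBP2 in the pair went from 59.3% in si-NC to 62.6% in si-SRSF2, with intervals that did not overlap.

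The pyrimidine tract binding proteins included the regulator with the highest ratio. PTBP2 (ENSG00000117569.20, chr1:96721665-96823738, plus strand), best known from neurons, where it replaces PTBP1, had 1095 counts under si-NC and 1300 under si-SRSF2, or 54.9 and 89.6 CPM. On the log2 scale the ratio was 0.70 (0.59 to 0.82). PTBP1, the widely expressed repressor of PTBP2 exon inclusion, had 5864 and 4914 counts, or 294.2 and 338.6 CPM, and a ratio of 0.20 (0.15 to 0.26). PTBP3, the paralog first described in hematopoietic cells, had 6870 and 4171 counts, or 344.7 and 287.4 CPM, and a ratio of -0.26 (-0.32 to -0.21). The share of PTBP3 in the summed counts of its pair with PTBP1, which are not corrected for length, was 54.0% (53.1 to 54.8) under si-NC and 45.9% (44.9 to 46.9) under si-SRSF2. The share of PTBP2 in its pair with PTBP1 was 15.7% (14.9 to 16.6) and 20.9% (19.9 to 22.0). HNRNPLL, a CA-repeat binding regulator of CD45 splicing in lymphocytes, had 949 and 674 counts with a ratio of -0.04.

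**Figure D3:**
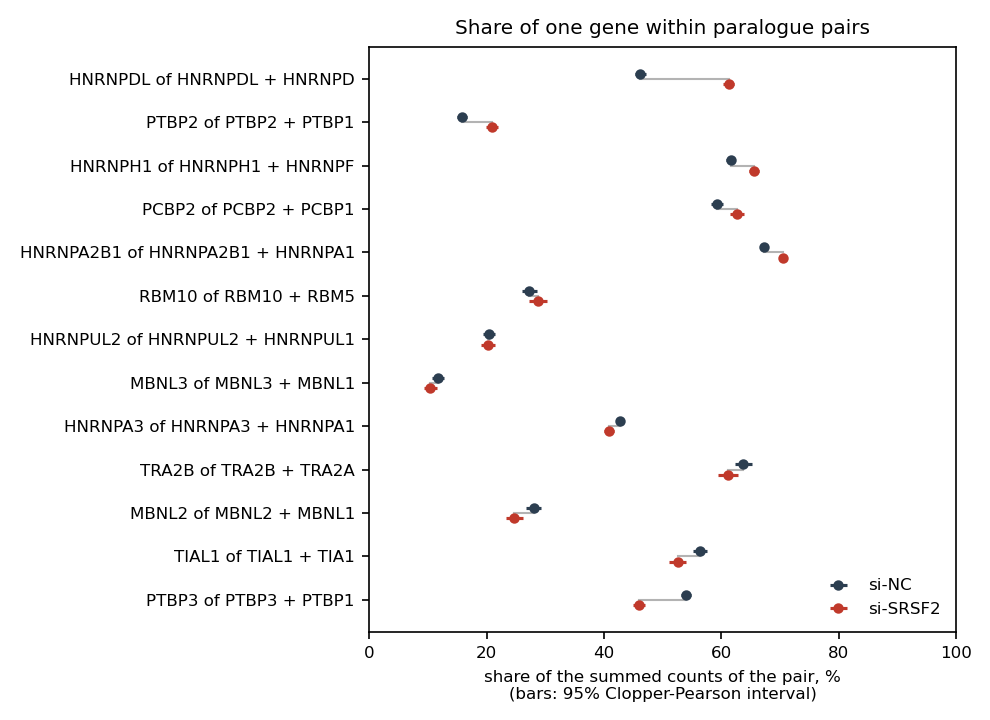
Share of the summed counts of a paralog pair taken by the first-named gene (horizontal axis, percent) in si-NC (dark) and si-SRSF2 (red) for the 13 pairs with at least 200 counts for each gene in si-NC, with bars for 95% Clopper-Pearson intervals. The top row, HNRNPDL with HNRNPD, goes from 46.2% to 61.3%, and the bottom row, PTBP3 with PTBP1, goes from 54.0% to 45.9%.

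The other hnRNP proteins all lay between the 25% marks. HNRNPC, a tetramer that packages nascent RNA and binds U tracts, had 11685 and 9174 counts and a log2 ratio of 0.11 (0.07 to 0.15). HNRNPU, a nuclear matrix and chromatin protein, had 11172 and 8881 counts and a ratio of 0.13 (0.09 to 0.17). HNRNPUL1 had 4458 and 3595 counts, or 223.7 and 247.7 CPM, with a ratio of 0.15 (0.08 to 0.21), and HNRNPUL2 had 1143 and 912 counts, or 57.4 and 62.8 CPM, with a ratio of 0.13 (0.00465 to 0.26). These 4 genes shared the direction, and HNRNPUL2 made up 20.4% and 20.2% of its pair with HNRNPUL1, with overlapping intervals. HNRNPM, a regulator of exons in the epithelial to mesenchymal transition that the study also depleted separately, had 2870 and 1968 counts, or 144.0 and 135.6 CPM, and a ratio of -0.09 (-0.17 to -0.00356). SYNCRIP, the hnRNP Q protein, had 3170 and 2230 counts, or 159.1 and 153.7 CPM, and a ratio of -0.05 (-0.13 to 0.03). HNRNPR, its closest relative, was low for an hnRNP gene, with 94 and 56 counts, or 4.72 and 3.86 CPM, and a ratio of -0.26 (-0.79 to 0.20). SYNCRIP made up 97.1% and 97.5% of the pair, with overlapping intervals. The 3 HNRNPR pseudogene rows held a further 73 and 37 counts, with which the ratio was -0.36 (-0.77 to -0.01). The cause of the low HNRNPR count was not tested, and the share of SYNCRIP rests on that count.

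**Figure D4:**
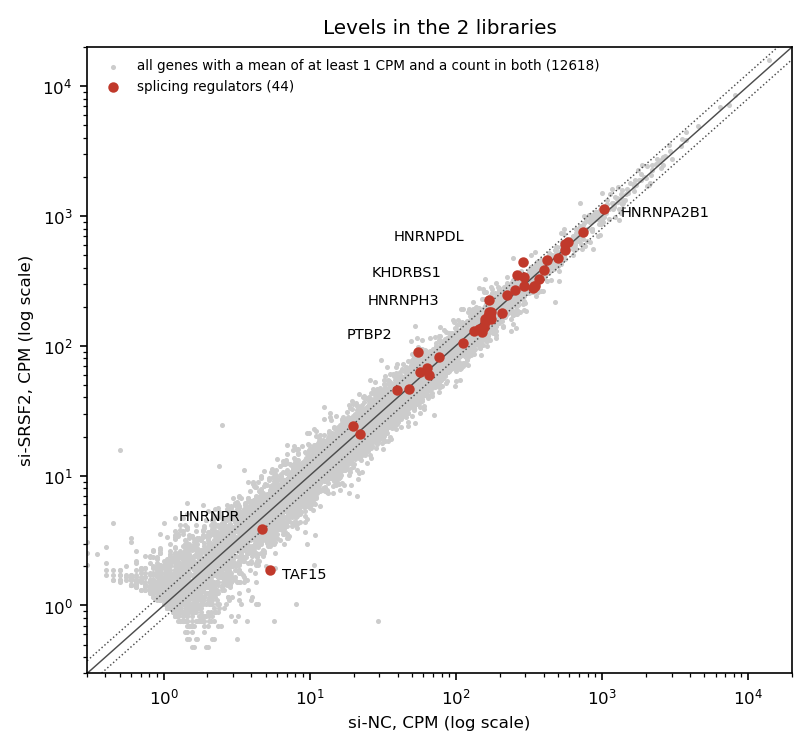
Level in si-NC (horizontal axis, CPM, log scale) against level in si-SRSF2 (vertical axis, CPM, log scale) for the 12618 genes at a mean of 1 CPM or more and a count in both libraries (grey) and the 44 splicing regulators (red), with a solid line of equality and dotted lines at the 25% marks. PTBP2, HNRNPH3, KHDRBS1 and HNRNPDL lie above the upper dotted line, and TAF15, at 5.32 and 1.86 CPM, lies below the lower one.

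Among the FET proteins and TDP-43, the only gene past a 25% mark was also the least certain. TAF15 (ENSG00000270647.7, chr17:35809482-35864615, plus strand), which joins RNA polymerase II transcription with RNA processing, had 106 counts under si-NC and 27 under si-SRSF2, or 5.32 and 1.86 CPM, and a log2 ratio of -1.302 (-2.18 to -0.89). Of the 31-mers of its canonical transcript, 80.4% also occurred on GRCh38 scaffolds other than the assembled chromosomes, and the part of this shared sequence in its low count was not tested. EWSR1, of the same family, had 5850 and 4170 counts, or 293.5 and 287.3 CPM, and a ratio of -0.03 (-0.09 to 0.03). TARDBP, which encodes TDP-43, a repressor of cryptic exons that binds UG repeats, had 3410 and 2527 counts and a ratio of 0.03 (-0.05 to 0.10). TAF15 thus took 1.78% of its pair with EWSR1 under si-NC and 0.643% under si-SRSF2.

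The tissue-specific regulators showed no ratio past a 25% mark. MBNL1, the muscleblind protein sequestered in myotonic dystrophy, had 3359 and 2653 counts, or 168.5 and 182.8 CPM, and a log2 ratio of 0.12 (0.04 to 0.19). MBNL2 had 1307 and 869 counts, or 65.6 and 59.9 CPM, and a ratio of -0.13 (-0.26 to -0.01), and MBNL3 had 443 and 306 counts, or 22.2 and 21.1 CPM, and a ratio of -0.07 (-0.29 to 0.14). MBNL2 made up 28.0% of its pair with MBNL1 under si-NC and 24.7% under si-SRSF2, with intervals that did not overlap, and MBNL3 made up 11.7% and 10.3% of its pair with MBNL1, with intervals that overlapped. CELF1, which opposes MBNL proteins at developmentally controlled exons, had 7994 and 5591 counts and a ratio of -0.06. RBFOX2, which binds UGCAUG, had 394 and 349 counts and a ratio of 0.28 (0.07 to 0.49), and 86.2% of its 31-mers also occurred on other scaffolds. QKI, the STAR-family protein, was nearly undetected with 0 and 3 counts, too few for a fold.

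The epithelial splicing proteins were split. ESRP1 was listed at 0 counts in both libraries, which by counting error alone allows up to 0.151 CPM under si-NC and 0.207 CPM under si-SRSF2. DHX16, a splicing helicase that every cell uses, was also listed at 0 in both, so a listed 0 does not show that a gene is not expressed. ESRP2 had 786 and 661 counts, or 39.4 and 45.5 CPM, and a log2 ratio of 0.21 (0.06 to 0.36). All counts of this pair came from ESRP2. Of the 7 epithelial markers, KRT8, KRT18, EPCAM and CDX2 had at least 1 CPM, as did ESRP2. CDH1, KRT20 and VIL1 did not, so the markers were mixed.

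Among the U-rich, AU-rich and KH-domain binding proteins, KHDRBS1 was the gene past a 25% mark. KHDRBS1 (ENSG00000121774.18, chr1:32013868-32060850, plus strand) encodes SAM68, a STAR-family protein that links signaling to splicing, and had 5270 counts under si-NC and 5089 under si-SRSF2, or 264.4 and 350.6 CPM. Its log2 ratio was 0.41 (0.35 to 0.46). TIA1, which aids recognition of weak 5′ splice sites followed by U-rich intron sequence, had 3176 and 2345 counts, or 159.4 and 161.6 CPM, and a ratio of 0.02 (-0.06 to 0.10), and its relative TIAL1 had 4104 and 2598 counts, or 205.9 and 179.0 CPM, and a ratio of -0.20 (-0.27 to -0.13). TIAL1 held 56.4% of that pair under si-NC and 52.6% under si-SRSF2, with intervals that did not overlap. ELAVL1, the mRNA-stabilizing protein HuR, had 3017 and 1865 counts and a ratio of -0.24 (-0.32 to -0.15). KHSRP, which promotes decay of AU-rich mRNA, had 3289 and 2446 counts and a ratio of 0.03. Within this group of 5, the ratios ran from -0.24 to 0.41.

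The 2 TRA2 and 4 RBM genes of the list had log2 ratios from -0.04 to 0.14. Of the numbered RBM genes compared outside the list, RBM14 at 0.43, RBM15 at -0.36 and RBM6 at -0.40 lay past the 25% marks. RBM4, RBM4B, RBM17, RBM22, RBM23 and RBM38 lay between the marks. These genes were named after their values were seen. TRA2A had 1521 and 1196 counts, or 76.3 and 82.4 CPM, with a log2 ratio of 0.11 (0.000213 to 0.22), and TRA2B, which binds GAA-rich enhancers, had 2672 and 1886 counts, or 134.1 and 129.9 CPM, with a ratio of -0.04 (-0.13 to 0.04). RBM39, a U2AF-related coactivator, had 8337 and 6684 counts and a ratio of 0.14 (0.09 to 0.19). RBM25, a U1 snRNP-associated protein, had 3466 and 2636 counts with a ratio of 0.06. RBM5 and RBM10 are related tumor suppressors that act on exon definition. RBM5 had 3406 and 2418 counts, or 170.9 and 166.6 CPM, and a ratio of -0.04 (-0.11 to 0.04), and RBM10 had 1275 and 973 counts, or 64.0 and 67.0 CPM, and a ratio of 0.07 (-0.05 to 0.19). TRA2B made up 63.7% and 61.2% of its pair with TRA2A, and RBM10 27.2% and 28.7% of its pair with RBM5, with overlapping intervals in both pairs.

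The total put out by the hnRNP genes was nearly the same in both libraries. The 19 genes named HNRNP together with SYNCRIP, 20 in all, summed to 127487 counts under si-NC and 95845 under si-SRSF2, or 6397 and 6604 CPM, and the log2 ratio of the sums was 0.05 (0.03 to 0.06). All 47 regulators took 1.07% of all counts under si-NC and 1.10% under si-SRSF2.

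Levels between genes were compared per length, as CPM per kb of annotated exon in si-NC. By the union of exons, HNRNPK was first (130.4), followed by HNRNPF (106.3), PCBP1 (101.5) and HNRNPA2B1 (81.6). By the length of the canonical transcript, a measure chosen after the data were seen, the order was HNRNPA2B1 (283.7), HNRNPK (257.3), HNRNPH1 (249.0), HNRNPC (185) and HNRNPF (135.5). HNRNPK, HNRNPA2B1, HNRNPC and HNRNPF were among the first 5 by both lengths. PTBP2 was at rank 40 by union length and 35 by canonical length, HNRNPDL at 11 and 17, HNRNPH3 at 20 and 16, and KHDRBS1 at 7 and 10. Whether neighbors in this order differ could not be tested with 1 library per group. The places of HNRNPK, HNRNPC, HNRNPA1 and HNRNPA3 are also uncertain because of the near-identical copies described above. Pseudogene rows were not added to these levels.

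The 4 higher genes were also read for the 3′ UTR letters that an siRNA seed can pair with. None of the 44 regulators held GTCGCGA, the site of the seed of the strand opposite to the listed si-SRSF2 strand, in its canonical 3′ UTR, and among all genes with a 3′ UTR 0.259% did. GATTTGG, the site of the seed of the listed strand, was held by 12 of 44 (27.3%) against 14.8% of all such genes, and the regulators had longer 3′ UTRs, with a median of 2138 against 1376 bases. It was found in 3 of the 4 higher genes and also in PTBP3, whose ratio was -0.26, and the windows below show it in capitals with its surroundings, read in the direction of the transcript.
HNRNPDL, chr4:82423057-82423083, minus strand: ttgaactctaGATTTGGgctttgaact
HNRNPH3, chr10:68342321-68342347, plus strand: gccttcataaGATTTGGgttgatgtat
PTBP2, chr1:96814272-96814298, plus strand: ttgtaattaaGATTTGGaatatggttg
PTBP3, chr9:112221154-112221180, minus strand: accaaattaaGATTTGGagatgtggga

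Regulators with the site lay on both sides of 0. The 12 with GATTTGG had a median log2 ratio of -0.05, from -0.26 to 0.70, and 5 of them were higher in si-SRSF2. The 32 without it had a median of 0.02, and over all genes the medians were -0.09 with the site and -0.03 without. A match is a run of letters in the reference, and binding by either strand was not measured.

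Some of the regulators overlap other transcribed genes. On the opposite strand, NFE2L2 covered 53.6% of the exon bases of HNRNPA3 with 1123 and 663 counts, MAP3K12 covered 18.8% of those of PCBP2 with 587 and 470 counts, and the antisense RNA PCBP1-AS1 covered 73.2% of those of PCBP1 with only 54 and 53 counts. CBX3, PHYKPL, RUFY2, TGFB1, NDUFS3, NFATC3 and NDUFB11, also on the opposite strand, and RBM6, on the same strand as RBM5, each had over 10% of the counts of the regulator they touch but covered between 2.14% and 9.25% of its exon bases. The readthrough gene HNRNPUL2-BSCL2 covered 44.3% of the exon bases of HNRNPUL2 on the same strand and had 0 counts in both libraries. The strand setting of the counting is not given in the sources used here, so reads on these bases cannot be assigned with certainty.

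Gene structure was taken from GENCODE 44. At least 1 transcript annotated as a target of nonsense-mediated decay was present for 29 of the 44 regulators (65.9%) and for 49.6% of all coding genes at that level. The regulators had a median of 17 annotated transcripts against 8, and 12.5 exons in the canonical transcript against 9. HNRNPDL and PTBP2 had 4 such transcripts each, and HNRNPH3 and KHDRBS1 had 0. Gene counts sum all of these isoforms, so that a ratio here does not say which isoform differed.

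The other genes of the splicing pathway were described in the same way. Apart from SRSF2, 10 of 11 SR protein genes reached 1 CPM, with a median log2 ratio of 0.01, 1 higher by the 25% mark and 0 lower. The higher gene was SRSF8, with 274 and 439 counts and a ratio of 1.11 (0.92 to 1.36). Among other RNA-binding splicing regulators, 33 of 52 reached 1 CPM, with a median of 0.03, 4 higher by the 25% mark and 4 lower. Among constitutive spliceosome genes, 43 of 44 reached it, with a median of 0.08, 31 ratios above 0, 2 higher by the 25% mark and 3 lower. Over all genes at that level, 5830 of 12620 ratios were above 0. The only ratios past 1.5-fold among these spliceosome genes were 0.999 for PRPF8 (153 and 230 counts) and -1.07 for PRPF31 (34 and 8 counts). Both are core factors, yet their counts were far below the 8546 and 5719 of SNRNP200, another core factor, and DHX16 was the gene at 0, so these ratios are uncertain. The cause of the low counts was not tested.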

How the data were processed

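RKO cells transfected with si-NC or si-SRSF2 gave 1 library each (TruSeq stranded mRNA kit, HiSeq X). The authors trimmed adaptors, dropped reads of low quality, aligned the rest to GRCh38 with HISAT2 (2.0.4 per the submitters' processing notes), counted with HTSeq and deposited raw counts per gene symbol, without normalization. The strand setting is not given in the sources used here. The methods name an Ensembl annotation, while 16146 of the 54261 symbols have the LOC form of NCBI.

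Counts were scaled with TMM in edgeR 4.0.16 (R 4.3.3) and expressed as CPM. Ratios used CPM + 0.5 for genes averaging 1 CPM or more. No test was run on single libraries, and 95% Clopper-Pearson intervals (SciPy 1.17.1) cover counting error only. The depths were 19931360 and 14512802 counts. The calculations were tested on simulated data. Of the symbols, 34408 were found in GENCODE 44, which gave positions, lengths, 3′ UTRs and overlaps. Shared sequence was the share of every 10th 31-mer of the canonical transcript found elsewhere in GRCh38. siRNA sequences came from the study's reagent table.

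The 47 genes and the comparison lists were chosen with earlier results of these data known. Full values were given for genes past a 25% difference, for HNRNPM, HNRNPK and HNRNPH1, and for members of the 17 paralog pairs, and other genes were given by counts and ratio. Beyond the list, SRSF2, related genes past 1.5-fold, pseudogene rows and overlapping genes with more than 10% of a member's counts were named, the overlaps of PCBP1, HNRNPH2 and HNRNPUL2 being named after their values were seen. Protein sequences were planned for 1 pair and were not used here. Alternatives were scaling by total counts, by upper-quartile factors, by DESeq2 1.42.0 size factors or by TMM without mitochondrial and the 20 most abundant genes, other pseudocounts (0.1 and 2 CPM), no minimum, a minimum of 5 CPM, whole-interval calls and folds of 1.5 and 2. Chosen after seeing the data were adding pseudogene rows, leaving out genes with sequence on other scaffolds, and canonical length.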

Additional observations from a re-analysis of the deposited data

How the results depend on the processing

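No paired analysis was possible because there was 1 library in each group, and for the same reason no replicate could be left out. Under the 4 other scalings and both other pseudocounts, 4 regulators were at least 25% higher and 1 lower, as with TMM. With no minimum 5 of 46 were higher, QKI with 0 and 3 counts being added. At 1.5-fold 2 were higher and at 2-fold 0. The count of lower genes was 0 with a minimum of 5 CPM, which removed TAF15 and HNRNPR, and also 0 without TAF15 and RBFOX2, the genes with at least 50% of their 31-mers on other scaffolds, a step chosen after seeing the data. For the summed hnRNP genes the log2 ratio was 0.0704 with upper-quartile factors against 0.0459, since those factors raised every ratio by 0.02. They also turned the sign of 1 regulator of 44, HNRNPH1. For SRSF2 the scalings gave ratios from -0.997 to -0.97. HNRNPR, TAF15, QKI, ESRP1 and HNRNPH2 had the fewest counts and so the widest counting intervals or none, and variation between transfections is unknown for every gene.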
